A study of Mus musculus with 367 samples.

Results

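Rgs5 mural cells and matrix fibroblasts were compared among single tdTomato-high cells of mouse wounds taken 12, 15 and 21 days after wounding. The classes were chosen by measured values, in FPKM, which scales the fragments of a gene by its length and by the fragments of the cell. A mural cell had Rgs5 of at least 500 FPKM, and a matrix fibroblast had Col1a1 of at least 1000 FPKM with Rgs5 under 100 FPKM. Both had Tyrobp, a myeloid gene, under 50 FPKM, at most 15% of summed FPKM on mitochondrially encoded genes and at least 2000 genes above 0. The rule took 60 mural cells and 204 matrix fibroblasts of the 367 cells in all, 305 of which were past the last pair of limits. Means of the classes were paired within the 5 captures that held at least 3 cells of each kind, which left 59 mural cells and 146 matrix fibroblasts.

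Every cell came from Sm22-Cre;tdTomato mice of mixed background, aged 3 to 8 weeks, with a square excisional wound of 1.5 cm a side on the back. In this model Cre recombinase is under the Tagln (Sm22) promoter, and a cell keeps tdTomato once Cre has been active in it, whether or not it still makes Tagln. Wounds of 2 to 3 animals were pooled at each time point, viable tdTomato-high cells were sorted, and single cells were caught on a microfluidic chip, in 3 captures at day 12, 2 at day 15 and 2 at day 21. It is not stated whether captures of a day held different animals, so p-values measure the spread between captures, which may be technical.

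Mural cells, the pericytes of capillaries and the smooth muscle cells of larger vessels, sit on the outer face of the endothelium within a shared basement membrane. They set vessel diameter through membrane potential, calcium and cyclic GMP, and are held to the vessel by PDGF-B acting on the receptor Pdgfrb and by Notch3. Matrix fibroblasts of a healing wound lay down the fibrillar collagens and proteoglycans of the new dermis and carry the receptor Pdgfra. Rgs5, a regulator that ends signalling by G-protein-coupled receptors, is a textbook pericyte gene. In unsorted day 12 cells the paper, however, counted those marked by Rgs5 among its fibroblasts, as a population low in Pdgfra and high in Pdgfrb. Among sorted day 12 cells it reported a cluster that most resembled part of this population and had high Pdgfrb. By staining of day 12 wounds it placed most RGS5-positive cells outside blood vessels. The position of the cells compared here was not measured, and mural is used as the name of a class.

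Values of the gating genes are given as description only. Mean Rgs5 of the mural class lay between 6161 and 8193 FPKM in the 5 captures, against 1.58 to 7.78 FPKM in the matrix class. The lowest mural cell stood at 609.7 FPKM and the next at 678 FPKM, while the highest cell below the limit stood at 419.6 FPKM. Of the filtered cells with Tyrobp under 50 FPKM, 5 had Rgs5 between 100 and 500 FPKM and joined neither class, and 4 were under 100 FPKM for Rgs5 and under 1000 FPKM for Col1a1. For Col1a1 the lowest matrix fibroblast was at 1011 FPKM, and the highest Rgs5-low cell under the limit at 612 FPKM. Few cells thus lay near the Rgs5 limit, as the plot of Rgs5 against Col1a1 shows.

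**Figure D1:**
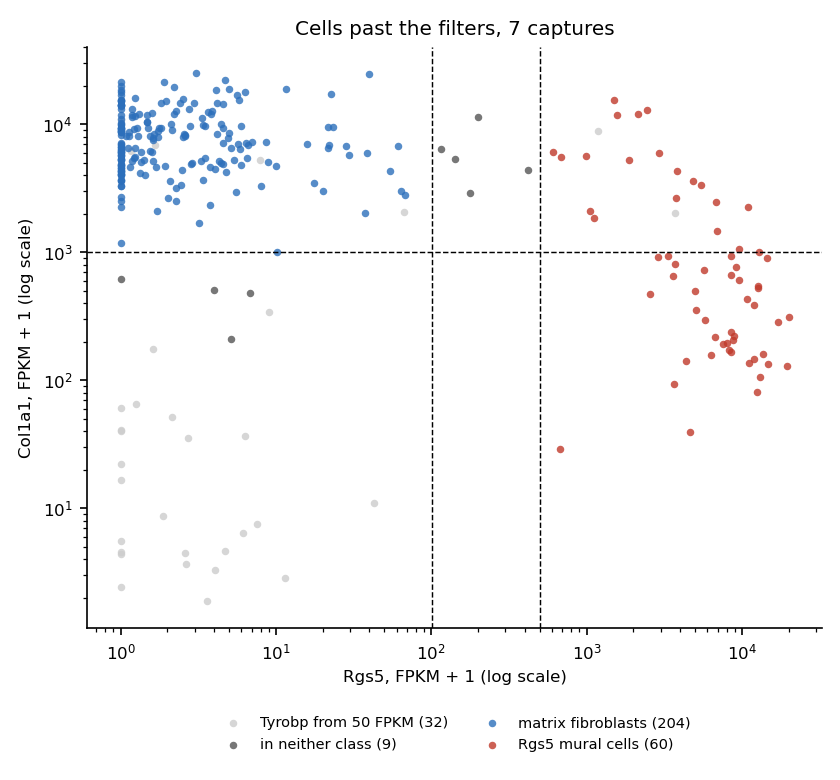
Rgs5 (horizontal) and Col1a1 (vertical) of each cell past the filters on genes and mitochondrial share, in FPKM + 1 on log axes, with the limits of the classes as dashed lines. The 60 mural cells lie to the right of the gap between 419.6 and 609.7 FPKM of Rgs5, and 19 of them lie above the Col1a1 line among the values of the 204 matrix fibroblasts.

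The classes were also described by 4 further mural markers that the rule did not use, Higd1b, Cox4i2, Ndufa4l2 and Notch3. These were chosen with earlier results of these data known. Genes that follow Rgs5 from cell to cell are drawn along by the gate, so the counts are no independent check of the label. At least 3 of the 4 markers were above 0 in 48 of the 60 mural cells, all 4 in 35, and none of the mural cells lacked all of them. Among matrix fibroblasts 0 of 204 had 3 or more, so that a share up to 1.47% is possible, and 161 had none. Limits of this kind and intervals cover counting error only. The share of mural cells among filtered cells was 20.9% (95% exact binomial interval 10.04 to 36.04), 14.3% (5.94 to 27.2) and 43.2% (27.1 to 60.5) in the day 12 captures. It was 24.7% (15.3 to 36.1) in day 15 capture 1 and 25.7% (12.5 to 43.3) in day 21 capture 1. The intervals of day 12 captures 2 and 3 overlapped only from 27.1 to 27.2%. Whether the share differed between captures was not tested. The other day 15 capture held 1 mural cell of 27 (0.0937 to 18.97%), and the other day 21 capture 0 of 41 (0 to 8.60%).

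Depth was estimated from the steps between low FPKM values. The median cell had 1174442 fragments in the mural class and 1401267 in the matrix class, with ranges of 26151 to 6967762 and 12579 to 8053985. Both ends of each range lay outside the depths that were simulated to test the estimate. Genes above 0 per cell averaged 5822 ± 776 in mural cells and 5964 ± 396 in matrix fibroblasts (SD, n = 5 captures). The difference of -142 ± 448 was within the spread between captures (exact sign-flip permutation test, two-sided, p = 0.5, where 0.0625 is the smallest p that 5 pairs allow). It was -552 ± 562 with the median over cells (same test, p = 0.1875). With a mitochondrial share of at most 10% it was -232 ± 292 (same test, p = 0.125). In both of these the mural class was lower in 4 of 5 captures. No cell had the same values as another. Of 12 endothelial markers, Cdh5, Tek and Cldn5 were at 0 in every mural cell of the paired captures. In every matrix fibroblast Cdh5, Kdr, Egfl7, Cldn5, Erg and Ptprb were at 0. The 12 markers summed to 10.04 to 87.8 FPKM over the mural capture means and 1.19 to 4.94 FPKM over the matrix ones. The 4 members tested were all higher in mural cells, with a median difference of 1.68 in log2(mean FPKM + 1). Of these 0 were called, and 2 had an unadjusted p under 0.05 (limma). Of the mural cells 8 had an endothelial sum of at least 50 FPKM. Without them 131 genes were called higher and 125 lower in mural cells. The 12 myeloid markers summed to 2.15 to 46.8 and 6.38 to 89.9 FPKM, and their part in the results was not tested.

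Over all genes, 287 of 13962 differed between the classes at an adjusted p under 0.05 (limma, paired within captures, Benjamini-Hochberg adjusted over all genes tested), which is 2.06%. Of these 147 were higher in mural cells (1.05%) and 140 lower (1.00%). The median difference of all genes was -0.21 on the scale of log2(mean FPKM + 1), and centring each class mean on its median gene gave 269 higher and 79 lower. Genes that follow Rgs5 or Col1a1 from cell to cell were drawn along by the gate, so the counts are more favourable than for classes formed without these cells' RNA. A difference on this scale understates the change of low genes. Without 1 capture the calls numbered 134 (day 12 capture 1), 160 (day 12 capture 2), 129 (day 12 capture 3), 130 (day 15 capture 1) and 242 (day 21 capture 1). The lists below were written with earlier results of these samples known, and their counts are therefore not independent evidence. Values by capture are given in the order day 12 captures 1, 2 and 3, day 15 capture 1 and day 21 capture 1.

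The largest difference of all tested genes belonged to Higd1b, a paralogue of the hypoxia-induced mitochondrial protein Higd1a. Its mean in mural cells was 690.4, 507, 833, 885 and 296 FPKM, against 0, 0, 0, 2.95 and 0 FPKM in matrix fibroblasts. Every mural value stood far above every matrix value, the difference was 8.83 ± 0.54 (SE, adjusted p = 3.86e-05), and 50 of 59 mural cells and 9 of 146 matrix fibroblasts had a value above 0. Cox4i2 encodes the oxygen-sensitive isoform of subunit IV of cytochrome c oxidase. It stood at 295, 230.5, 504, 423 and 435 FPKM in mural cells and 0, 1.61, 0, 6.33 and 0 FPKM in matrix fibroblasts (difference 7.66 ± 0.63, adjusted p = 0.000117), and was above 0 in 41 and 3 cells. Ndufa4l2, a hypoxia-induced relative of the respiratory chain protein Ndufa4, stood at 543, 630.4, 755, 850.3 and 174 FPKM against 34.8, 0, 11.1, 0.587 and 54.9 FPKM (difference 5.98 ± 0.96, adjusted p = 0.00828). All 3 rose in the mural class in 5 of 5 captures with no overlap between the classes. Ndufa4l2 overlaps Shmt2 on the opposite strand, and the counting is not stated to use strand.

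Their general partners were not past the threshold. Cox4i1, the ubiquitous subunit IV, stood at 1045, 893, 925, 1554 and 438 FPKM in mural cells and 826, 658, 737, 633 and 493 FPKM in matrix fibroblasts (difference 0.45 ± 0.22, adjusted p = 0.387). For Ndufa4 the values were 386, 346, 144, 56.2 and 2308 and 453, 646, 364, 387 and 359 FPKM (difference -0.51 ± 0.58, adjusted p = 0.728), with the mural value of day 21 far above the others. Ndufa4 was lower in the mural class in 4 of 5 captures and above 0 in 35 of 59 mural cells and 133 of 146 matrix fibroblasts. With the mean of log2 values over cells in place of the log2 of the mean it was called lower, with a difference of -2.61 (limma adjusted p = 0.0124). Higd1a stood at 52.3, 69.8, 78.96, 69.5 and 32.98 and 84.01, 81.9, 77.1, 51.5 and 69.2 FPKM (difference -0.30 ± 0.43, adjusted p = 0.794), and its sign turned when class means were centred on the median gene. The ranges of the classes overlapped in all 3 partners. Over the whole list of mitochondrial isoforms 3 of 10 tested genes rose and 0 fell, with a median difference of 0.51.

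**Figure D2:**
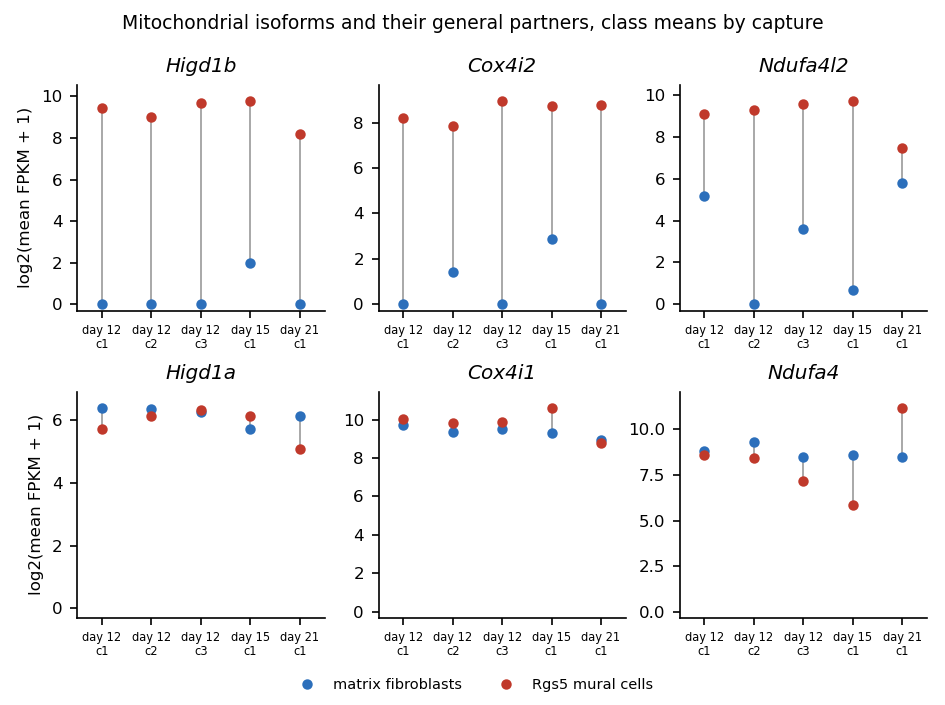
Class means of 3 mitochondrial isoforms (upper row) and of their general partners (lower row) in each capture, as log2(mean FPKM + 1), with mural cells in red, matrix fibroblasts in blue and a grey line joining the classes of a capture (c). Higd1b, Cox4i2 and Ndufa4l2 are apart in 5 of 5 captures, and the partners overlap.

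Of 20 genes known as markers of pericytes and vascular smooth muscle, 19 were tested, since Rgs5 was held out, and 10 rose while 0 fell, with a median difference of 4.28. Gja4, the connexin 37 of vessel walls, stood at 96.6, 69.6, 345, 172 and 85.5 FPKM in mural cells and was listed at 0 in the matrix class of every capture (difference 7.01 ± 0.64, adjusted p = 0.000257). Vtn, the adhesive glycoprotein vitronectin, stood at 267, 114, 482, 253 and 61.3 FPKM against 0.0103, 15.9, 9.001, 0 and 0 FPKM (difference 6.07 ± 0.77, adjusted p = 0.00221). Both were above the matrix range in every mural value. The difference of Gja4, against a class at 0, depends on the pseudocount and is no fold change. Pdgfrb, the receptor that defines mural cells in most tissues, was above 0 in most cells of both classes, 58 of 59 mural cells and 137 of 146 matrix fibroblasts. Its mural means were 113, 52.5, 255, 80.6 and 131 FPKM and its matrix means 37.01, 27.9, 29.4, 30.8 and 35.5 FPKM, which do not overlap, but the difference of 1.75 ± 0.47 missed the threshold (adjusted p = 0.0924). It passed in 3 of 23 alternatives, with a mean of at least 10 FPKM, centred on the median gene and with the mean of log2 values over cells (limma adjusted p = 0.0454, 0.0303 and 0.0164). Cspg4, the NG2 proteoglycan, and Foxs1, chosen after their values were seen, had differences of 2.62 and 3.29 and missed it as well (adjusted p = 0.0893 and 0.0867).

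Of 18 genes of the Notch pathway 11 were tested, 2 rose and 0 fell, with a median difference of 1.48. The receptor Notch3 stood at 35.8, 16.7, 21.9, 32.02 and 21.3 FPKM in mural cells and 0.0978, 0.0252, 0.399, 0.0116 and 0.0628 FPKM in matrix fibroblasts, with a gap between the classes in all captures (difference 4.53 ± 0.64, adjusted p = 0.00426). Jag1, a ligand, stood at 85.1, 60.6, 87.8, 90.1 and 38.99 and 16.9, 21.03, 23.6, 10.9 and 5.61 FPKM (difference 2.23 ± 0.51, adjusted p = 0.049), and its call was lost in each of the 5 fits without 1 capture (adjusted p 0.0954 to 0.181). The target gene Heyl, chosen after its values were seen, averaged 53.6 against 3.14 FPKM but missed the threshold with a difference of 3.36 ± 0.96 (adjusted p = 0.116). Notch3 overlaps an antisense gene.

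The promoters of Notch3 and of Kcnj8, the pore of the ATP-sensitive potassium channel described next, are shown because both genes were high in mural and near 0 in matrix cells. RefSeq sequences of 4 of 7 genes looked up matched (Notch3, Jag1, Kcnj8 and Abcc9), on GRCm38.p6, and Higd1b, Cox4i2 and Ndufa4l2 had none. The 250 bases before the start of Notch3 (chr17:32166891-32167140, minus strand) and Kcnj8 (chr6:142571615-142571864, minus strand) are written 5′ to 3′ in the direction of the gene, with ACGTG, the core of the hypoxia response element, in capitals on either strand.
Notch3: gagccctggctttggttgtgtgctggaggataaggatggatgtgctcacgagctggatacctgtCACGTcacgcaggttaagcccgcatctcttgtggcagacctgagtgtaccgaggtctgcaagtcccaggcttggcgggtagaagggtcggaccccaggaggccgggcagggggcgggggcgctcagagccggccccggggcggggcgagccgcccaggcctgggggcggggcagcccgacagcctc
Kcnj8: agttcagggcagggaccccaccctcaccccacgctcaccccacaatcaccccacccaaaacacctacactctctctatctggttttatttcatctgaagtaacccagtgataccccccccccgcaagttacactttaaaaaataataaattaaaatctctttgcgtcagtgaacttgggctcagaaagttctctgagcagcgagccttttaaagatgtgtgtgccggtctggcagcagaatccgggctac
The Notch3 promoter held 1 such match and Kcnj8 none, as a description only. ACGTG was present on either strand in 16.6% of 27025 promoters of this length, in 12 of the 105 genes called higher with a promoter (11.4%) and in 17 of the 100 called lower (17%). TGGGAA, the core that the Notch partner Rbpj is known to bind, was absent from both windows and from that of Jag1, occurred once in that of Abcc9, 221 bases before its start, and was found in 21.5% of all promoters, 23.8% of those of higher genes and 14% of those of lower genes.

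Genes of vascular tone formed the next group, and of 32 listed 30 were found under their symbol, 25 were tested, 8 rose and 1 fell, with a median difference of 2.60. Kcnj8 stood at 89.3, 175, 331, 132 and 638 FPKM in mural cells and 3.50, 0, 0.475, 0 and 0 FPKM in matrix fibroblasts (difference 7.19 ± 0.73, adjusted p = 0.000539), and was above 0 in 44 and 4 cells. Over all 60 mural cells its median was 26.8 FPKM and its highest value 4530 FPKM, so single cells weigh in these means. Abcc9, the regulatory subunit of the same channel, named after its values were seen, averaged 38.02 against 0.632 FPKM and also rose (difference 4.48 ± 0.74, adjusted p = 0.00971), but lost its call without day 12 capture 3 or day 15 capture 1 (adjusted p 0.0521 to 0.0546). The genes lie side by side on chromosome 6. Gucy1a1 and Gucy1b1 encode the subunits of the guanylate cyclase that nitric oxide activates. Gucy1a1 stood at 163, 83.7, 149, 233 and 465 FPKM against 4.15, 0, 0.208, 1.69 and 0.726 FPKM (difference 6.58 ± 0.62, adjusted p = 0.000277). Gucy1b1 stood at 14.5, 31.6, 71.6, 106 and 29.8 FPKM against 0.0119, 0.779, 0, 0.789 and 0 FPKM (difference 5.03 ± 0.67, adjusted p = 0.003). Both subunits were thus higher in 5 of 5 captures without overlap.

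Among the channels and receptors of this group, the calcium-permeable channel Trpc6 stood at 141, 74.8, 45.7, 118 and 62.9 FPKM in mural cells and 1.09, 0, 0.343, 0.104 and 0.0217 FPKM in matrix fibroblasts (difference 6.03 ± 0.62, adjusted p = 0.000539). Ednrb, a receptor of endothelins, stood at 25.3, 111, 5.94, 44.98 and 74.5 FPKM against 0.0322, 0.00852, 0.0132, 1.46 and 0 FPKM (difference 4.94 ± 0.76, adjusted p = 0.00594), in only 18 of 59 mural cells. Atp1b2, a subunit of the sodium pump, had a difference of 5.66 ± 0.73. The gene that fell was Npr2, the receptor of C-type natriuretic peptide, chosen after its values were seen, with 0.785 FPKM in mural and 13.1 FPKM in matrix cells (difference -3.05 ± 0.68, adjusted p = 0.043). Its call was lost in all 5 fits without 1 capture (adjusted p 0.0606 to 0.178). After centring on the median gene 11 genes of the list were called higher and 0 lower. Of the regulators of G-protein signalling other than Rgs5, 9 were tested, 2 rose and 0 fell. Rgs4, which lies near Rgs5 on chromosome 1, stood at 73.2, 522, 226, 212 and 115 FPKM against 2.62, 3.67, 1.28, 0.298 and 9.95 FPKM (difference 5.71 ± 0.68, adjusted p = 0.00141). Rgs16 stood at 6.31, 9.90, 25.9, 38.9 and 40.04 FPKM against 0, 1.30, 0.608, 0.463 and 0.47 FPKM (difference 3.75 ± 0.70, adjusted p = 0.0195), and lost its call without day 12 capture 1 or 3, day 15 capture 1 or day 21 capture 1 (adjusted p 0.0516 to 0.0954).

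Of 26 listed genes of the contractile apparatus 25 were tested, 7 rose and 1 fell, with a median difference of 0.96. Without each capture in turn, in the order above, 3, 4, 2, 2 and 6 were called higher, and 1 was called lower only without day 21 capture 1. Acta2, smooth muscle actin, stood at 851, 1132, 879.6, 2023 and 112 FPKM in mural cells and 369.7, 573, 118, 29.6 and 21.5 FPKM in matrix fibroblasts (difference 2.69 ± 0.59, adjusted p = 0.0423). It was higher in the mural class of 5 of 5 captures, but the matrix values of day 12 exceeded the mural value of day 21, and the call was lost without day 12 capture 1 or 3, day 15 capture 1 or day 21 capture 1 (adjusted p 0.0526 to 0.125). Tagln, the gene whose promoter drives Cre in these mice, stood at 519, 948, 1112, 1051 and 281 FPKM against 379, 356, 231, 196 and 85.6 FPKM (difference 1.65 ± 0.30, adjusted p = 0.0179), again with overlap, and lost its call without day 12 capture 2 or 3 or day 15 capture 1 (adjusted p 0.0548 to 0.0886). Myh11, the smooth muscle myosin heavy chain, stood at 4.90, 2.36, 27.9, 44.5 and 17.5 FPKM against 0, 0.0689, 0.167, 2.42 and 0 FPKM (difference 3.36 ± 0.71, adjusted p = 0.0353), and its call was lost without day 12 capture 1 or 3, day 15 capture 1 or day 21 capture 1 (adjusted p 0.0871 to 0.142).

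Synpo2, an actin-bundling protein, was the steadier member, with 52.6, 72.5, 52.4, 105 and 74.4 FPKM in mural cells and 1.23, 1.30, 0.00789, 0.0122 and 1.97 FPKM in matrix fibroblasts (difference 5.34 ± 0.64, adjusted p = 0.00141). Sncg, gamma-synuclein, had the largest difference of the list (7.14 ± 0.75, adjusted p = 0.000616), though only 24 of 59 mural cells were above 0. It was counted in this list but is not itself a contractile protein. Actg2, a smooth muscle actin whose sequence is close to Acta2, so that reads may be split between them, had a difference of 2.73 ± 0.52 and lost its call without day 12 capture 1, 2 or 3 or day 15 capture 1 (adjusted p 0.0542 to 0.101). Csrp2, a muscle LIM protein, was the member that fell, with 38.6, 26.01, 73.2, 77.6 and 51.9 FPKM in mural cells and 209, 155, 222, 288 and 191 FPKM in matrix fibroblasts (difference -2.05 ± 0.37, adjusted p = 0.0162), and its call was lost without day 12 capture 1, 2 or 3 or day 15 capture 1 (adjusted p 0.0535 to 0.0686).

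**Figure D3:**
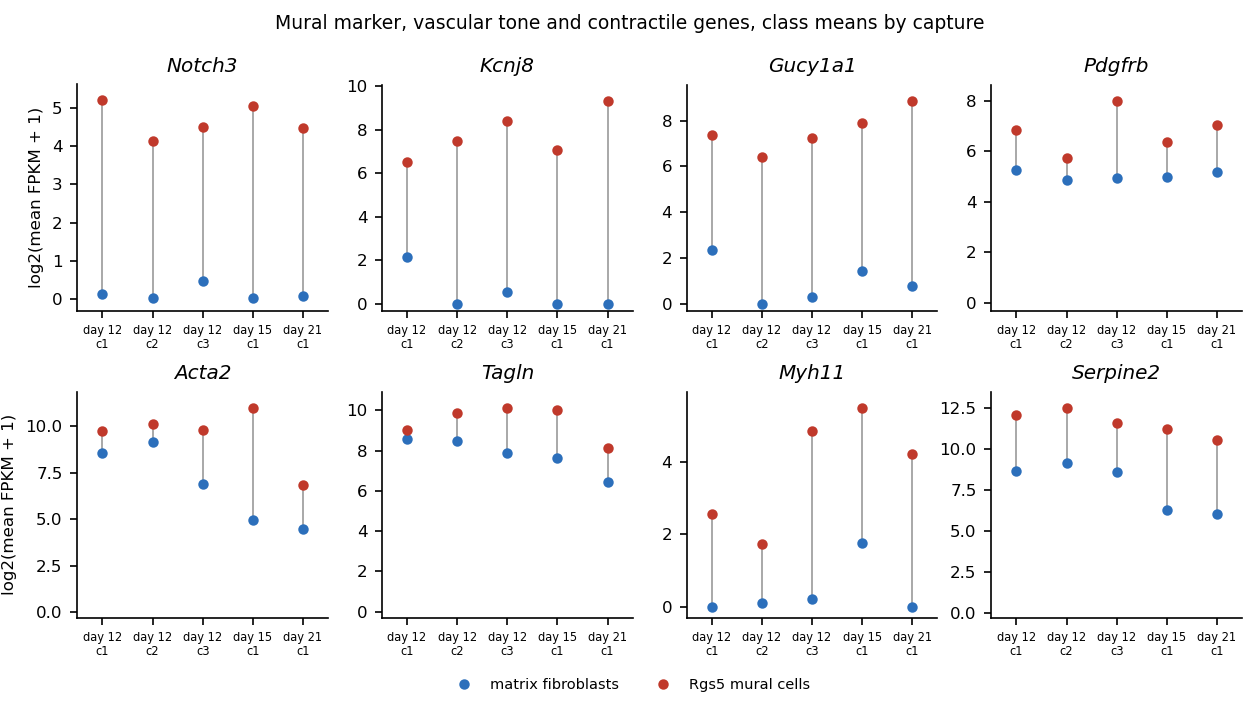
Class means of mural marker, vascular tone and contractile genes and of Serpine2 in each capture, as log2(mean FPKM + 1), drawn as for the isoforms. Notch3, Kcnj8 and Gucy1a1 are apart in every capture, while for Acta2 and Tagln the classes of some captures are close and the ranges overlap.

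Transcription factors tied to mural cells numbered 27, of which 23 were tested, 6 rose and 2 fell, with a median difference of 1.88. Epas1, the hypoxia-inducible factor 2 alpha, stood at 52.3, 68.4, 79.2, 77.96 and 164 FPKM in mural cells and 0.326, 1.57, 0.0279, 0.207 and 0.0411 FPKM in matrix fibroblasts (difference 5.94 ± 0.65, adjusted p = 0.000774). Nr2f2, also called COUP-TFII and known from veins, stood at 436, 342, 252, 279 and 488 FPKM against 18.1, 38.6, 7.29, 6.84 and 14.6 FPKM (difference 4.54 ± 0.45, adjusted p = 0.000477). Both kept their calls under all 23 alternatives. Ebf2 had a difference of 3.36 ± 0.74 and lost its call without day 12 capture 1, 2 or 3 or day 15 capture 1 (adjusted p 0.0947 to 0.182). Ebf1 stood at 282, 323, 473, 324 and 71.04 FPKM against 35.7, 46.2, 23.5, 43.1 and 81.7 FPKM, lower in the mural class at day 21 and higher in the other 4 captures, with a difference of 2.54 ± 0.56 that lost its call without day 12 capture 1, 2 or 3 or day 15 capture 1 (adjusted p 0.12 to 0.157). Of the factors that fell, Id2 had a difference of -3.04 ± 0.69 and Nfix of -2.55 ± 0.55, and each lost its call without several of the captures, Id2 without day 12 capture 1, 2 or 3 or day 15 capture 1 (adjusted p 0.118 to 0.142) and Nfix without day 12 capture 1, 2 or 3, day 15 capture 1 or day 21 capture 1 (adjusted p 0.0695 to 0.147). Mef2c and Zeb2, chosen after their values were seen, had differences of 2.18 and 2.05 and were past the threshold. Mef2c lost its call without day 12 capture 1 or 3, day 15 capture 1 or day 21 capture 1 (adjusted p 0.0528 to 0.176), and Zeb2 in all 5 such fits (adjusted p 0.056 to 0.168). Without each capture in turn 3, 3, 2, 2 and 5 factors were called higher and 0, 0, 0, 0 and 1 lower. After centring on the median gene 9 factors were called higher and 0 lower.

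Basement membrane genes rose in part, 4 of 17 tested, and 0 fell, with a median difference of 1.10. Col4a1 and Col4a2 encode the main chains of collagen IV and lie head to head, and reads of their overlap cannot be told apart without strand. Col4a1 stood at 508, 441, 688, 627 and 213 FPKM in mural cells and 43.2, 70.1, 66.6, 7.85 and 36.3 FPKM in matrix fibroblasts (difference 3.64 ± 0.51, adjusted p = 0.00378). Col4a2 had a difference of 3.47 ± 0.52, and Col18a1, the source of endostatin, stood at 315, 270.3, 323, 172 and 255 FPKM against 34.02, 38.1, 20.3, 8.98 and 7.86 FPKM (difference 3.77 ± 0.45, adjusted p = 0.00141). Sparcl1, a matricellular protein related to Sparc that was counted in this list, had its largest difference. Like Col4a1 and Col18a1, Sparcl1 was above 0 in 59 of 59 mural cells. Its means were 837, 790.2, 1201, 870.0 and 635 FPKM in mural and 9.68, 23.2, 15.3, 1.97 and 3.30 FPKM in matrix cells (difference 6.59 ± 0.49, adjusted p = 5.83e-05). Laminin and nidogen genes of the list had differences from -1.09 (Nid2) to 1.92 (Lama5), none past the threshold.

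Adhesion genes went both ways, with 6 of 22 tested higher and 1 lower and a median difference of 0.27. Esam, an adhesion molecule better known from endothelium, stood at 52.4, 74.03, 274, 201 and 189 FPKM in mural cells and 0, 0, 0, 0.0858 and 0 FPKM in matrix fibroblasts, above 0 in 36 and 1 cells (difference 7.04 ± 0.64, adjusted p = 0.000257). The integrin subunits Itga7 and Itga1, which with the beta 1 subunit bind laminin and collagen, had differences of 5.34 ± 0.71 and 4.63 ± 0.64. Mcam, or CD146, stood at 105, 128, 187, 205 and 45.8 FPKM against 0, 3.09, 0, 8.73 and 7.21 FPKM (difference 5.24 ± 0.75, adjusted p = 0.00446). Gjc1, connexin 45, had a difference of 3.07 ± 0.46, while Gja1, connexin 43 and chosen after its values were seen, was the gene that fell, with 129 FPKM in mural and 448 FPKM in matrix cells (difference -2.83 ± 0.60, adjusted p = 0.0353). It lost its call without day 12 capture 1 or 2 or day 15 capture 1 (adjusted p 0.0735 to 0.137) and with no replicate block.

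Interstitial matrix genes formed the largest group on the other side. Of 38 listed 37 were tested, Col1a1 being held out, and 18 fell while 0 rose, with a median difference of -1.70 and 36 of 37 values below 0. Without each capture in turn 11, 14, 13, 12 and 19 fell, and 1 fell with no variance trend and 0 with no filter on low values. Cthrc1, a secreted protein of activated fibroblasts, stood at 51.7, 44.6, 47.4, 126 and 144 FPKM in mural cells and 957, 949.9, 1142, 934 and 569.9 FPKM in matrix fibroblasts (difference -3.60 ± 0.39, adjusted p = 0.000774). Lum, the proteoglycan lumican, stood at 179.7, 19.3, 551, 261 and 1155 FPKM against 2216, 2452, 2529, 3198 and 2952 FPKM (difference -3.54 ± 0.58, adjusted p = 0.00967). In neither gene did the classes overlap. Mfap5, a protein of elastic microfibrils, had the largest difference of the list, with 0, 0, 152, 15.3 and 244 FPKM against 567, 456, 1198, 371 and 645 FPKM (difference -5.37 ± 0.99, adjusted p = 0.0181), but lost its call without day 12 capture 1 or day 15 capture 1 (adjusted p 0.0558 to 0.057).

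Other members followed. Mfap4, Col14a1 and Lox had differences of -4.85 ± 0.95, -3.78 ± 0.75 and -3.19 ± 0.64, and each lost its call without at least 3 of the captures, Mfap4 without day 12 capture 1 or 2 or day 15 capture 1 (adjusted p 0.0669 to 0.0715), Col14a1 without day 12 capture 1, 2 or 3 or day 15 capture 1 (adjusted p 0.0759 to 0.115) and Lox without day 12 capture 1, 2 or 3, day 15 capture 1 or day 21 capture 1 (adjusted p 0.0528 to 0.0781). The abundant genes of the list, chosen after their values were seen, were high in both classes. Col1a2 averaged 1622 FPKM in mural and 6452 FPKM in matrix cells (difference -2.06), and Col3a1 2703 and 8955 FPKM (difference -1.84). For Dcn, the proteoglycan decorin, the means were 1099.9 and 4495 FPKM (difference -2.17), and for Sparc 6551 and 15508 FPKM (difference -1.24). All 4 kept their calls without any 1 capture, with adjusted p of 0.000141, 0.000616, 0.000581 and 0.000948 in the main fit. They lost them with no variance trend and with no filter on low values. The 1 member above 0, Col5a3, chosen after its values were seen, had a difference of 1.50 ± 0.51 (adjusted p = 0.195).

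**Figure D4:**
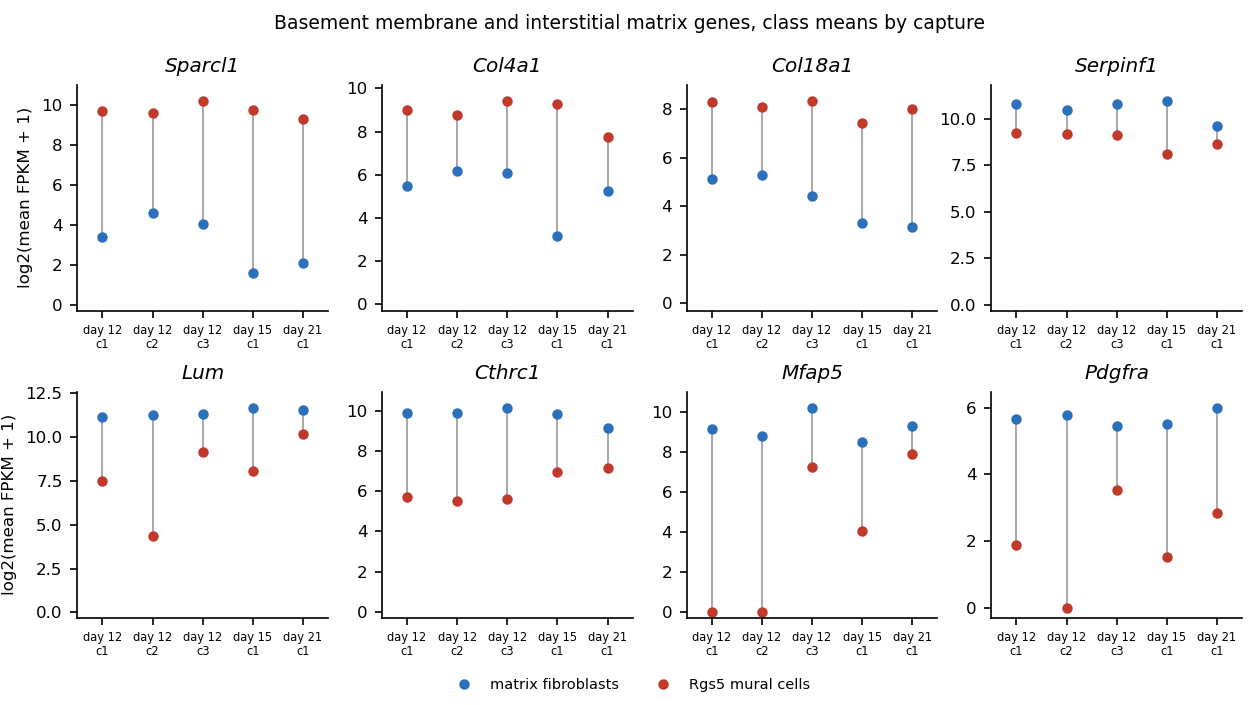
Class means of genes of the basement membrane list (Sparcl1, Col4a1, Col18a1), of Serpinf1 and of interstitial matrix and fibroblast genes in each capture, as log2(mean FPKM + 1), drawn as for the isoforms. The mural class is above in the first 3 genes and below in the other 5, in 5 of 5 captures.

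Fibroblast identity genes fell in 9 of 27 tested and rose in 1, with a median difference of -2.18. Without each capture in turn 5, 5, 7, 5 and 11 fell, and 3 fell with no variance trend. Pdgfra stood at 2.67, 0, 10.6, 1.90 and 6.24 FPKM in mural cells and 49.5, 54.5, 42.8, 44.8 and 63.2 FPKM in matrix fibroblasts, above 0 in 16 of 59 and 127 of 146 cells (difference -3.73 ± 0.68, adjusted p = 0.0174). No mural value reached the matrix range, but the call was lost without day 12 capture 1 or 2 or day 15 capture 1 (adjusted p 0.0621 to 0.0731). Crabp1, a retinoic acid-binding protein of dermal fibroblasts, stood at 154, 12.5, 45.05, 175 and 188 FPKM against 1404, 970.4, 1056, 966 and 633 FPKM (difference -3.61 ± 0.53, adjusted p = 0.00483). Prrx2, a homeobox factor, stood at 0, 0, 0.533, 1.63 and 1.84 FPKM against 11.02, 18.8, 38.02, 80.5 and 34.3 FPKM (difference -4.23 ± 0.64, adjusted p = 0.00573). Of the others, Sfrp2, Sfrp1 and Cd34 had differences of -3.83 ± 0.79, -3.25 ± 0.68 and -3.04 ± 0.67, and each lost its call without day 12 capture 1, 2 or 3 or day 15 capture 1 (adjusted p 0.0607 to 0.105 for Sfrp2, 0.111 to 0.137 for Sfrp1 and 0.12 to 0.151 for Cd34). The member that rose was Thy1, chosen after its values were seen, with 442 FPKM in mural and 122 FPKM in matrix cells (difference 1.86 ± 0.33, adjusted p = 0.0141), and its call was lost without day 12 capture 1 or 3 (adjusted p 0.0571 to 0.0641).

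Proteases, growth factors and secreted signals were mixed. Serpine2, or protease nexin 1, an inhibitor of thrombin, stood at 4183, 5692, 3070.0, 2325 and 1482 FPKM in mural cells and 395, 556, 384, 75.6 and 63.4 FPKM in matrix fibroblasts (difference 3.84 ± 0.28, adjusted p = 5.28e-05), and was above 0 in every mural cell. Mmp2, or gelatinase A, stood at 97.7, 21.8, 156, 148 and 145 FPKM against 817, 638, 680.0, 609 and 554 FPKM (difference -2.79 ± 0.42, adjusted p = 0.00537). Serpinf1, the antiangiogenic protein PEDF, fell, with 599.7, 591, 564, 275 and 402 FPKM against 1798, 1414, 1746, 1999 and 769.8 FPKM (difference -1.65 ± 0.25, adjusted p = 0.00594). These were 3 of the 4 calls among 22 tested proteases and inhibitors, whose median difference was -1.02, and the other was Mmp14, which had a difference of -1.91 ± 0.39 and lost its call without day 12 capture 1, 2 or 3 or day 15 capture 1 (adjusted p 0.0737 to 0.117).

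Of the PDGF and TGF-beta family, 24 genes were tested, 1 rose and 3 fell, and at most 1 fell in each fit without 1 capture. The ligand Pdgfa stood at 83.8, 91.5, 184, 98.7 and 612 FPKM in mural cells and 8.88, 28.3, 4.27, 4.06 and 1.09 FPKM in matrix fibroblasts (difference 4.48 ± 0.81, adjusted p = 0.0164), the reverse of its receptor Pdgfra, and its call was lost without day 12 capture 3 or day 15 capture 1 (adjusted p 0.0588 to 0.0643). Pdgfd, a ligand of Pdgfrb, and Pdgfrl had differences of -3.26 ± 0.74 and -1.62 ± 0.35, and each lost its call in all 5 fits without 1 capture (adjusted p 0.0554 to 0.168 and 0.0686 to 0.147). Of 10 insulin-like growth factor genes, 1 rose and 3 fell. Igf1 stood at 43.02, 0.06, 34.7, 25.6 and 328 FPKM against 640.2, 517, 934, 314 and 535 FPKM (difference -4.36 ± 0.85, adjusted p = 0.0255), and its call was lost without day 12 capture 1 or 3 or day 15 capture 1 (adjusted p 0.0679 to 0.0831). Igfbp7, a binding protein of vessel walls, stood at 233, 555, 298, 259.9 and 162 FPKM against 83.5, 130.4, 67.1, 65.7 and 38.3 FPKM (difference 1.94 ± 0.33, adjusted p = 0.0109), and lost its call without day 12 capture 2 or 3 (adjusted p 0.0564 to 0.0629). Igfbp6 and Igfbp2 had differences of -3.60 ± 0.74 and -2.48 ± 0.56 and lost theirs without most captures, Igfbp6 without day 12 capture 1, 2 or 3 or day 15 capture 1 (adjusted p 0.0877 to 0.125) and Igfbp2 in all 5 fits (adjusted p 0.0888 to 0.181).

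Among 24 tested signals to vessels and leukocytes 3 rose and 3 fell. Without each capture in turn 3, 3, 2, 2 and 3 rose and 0, 1, 1, 1 and 1 fell, and with no replicate block 1 rose and 1 fell. The neutrophil chemokine Cxcl1 stood at 5.78, 3718, 952, 1500.4 and 927 FPKM in mural cells and 0, 831, 297, 253 and 66.8 FPKM in matrix fibroblasts (difference 2.59 ± 0.35, adjusted p = 0.00306), with both classes low in day 12 capture 1. The monocyte chemokine Ccl2 stood at 143, 2354, 890.2, 1265 and 75.95 FPKM against 30.1, 276, 222, 256 and 32.8 FPKM (difference 2.16 ± 0.32, adjusted p = 0.00537). In each gene the mural class was above the matrix class in 5 of 5 captures, and the ranges over captures overlapped. Both calls were lost in the fit with no replicate block, that is, without pairing the classes of a capture (adjusted p = 0.554 and 0.29). Cxcl12, which guides leukocytes and progenitors, stood at 0, 0, 6.70, 0.0956 and 3.96 FPKM against 16.9, 78.3, 42.5, 22.98 and 21.9 FPKM (difference -3.93 ± 0.75, adjusted p = 0.0227), and its call was lost without day 12 capture 1 or 2 or day 15 capture 1 (adjusted p 0.0753 to 0.0929). Angpt2, an antagonist of the endothelial receptor Tek, had a difference of 4.09 ± 0.81, Sema3a of -3.10 ± 0.66 and Ccl7 of -3.06 ± 0.66, and the 3 lost their calls, Angpt2 without day 12 capture 1 or 3, day 15 capture 1 or day 21 capture 1 (adjusted p 0.0571 to 0.112), Ccl7 without day 12 capture 1 or 3, day 15 capture 1 or day 21 capture 1 (adjusted p 0.0732 to 0.112) and Sema3a in all 5 fits (adjusted p 0.0586 to 0.145). Of 15 immediate early genes and 19 cell cycle genes tested, 0 were past the threshold in either direction, with medians of 0.70 and -0.39 and with 6 and 0 at an unadjusted p under 0.05 (limma). After centring on the median gene 4 of the immediate early genes were called higher.

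**Figure D5:**
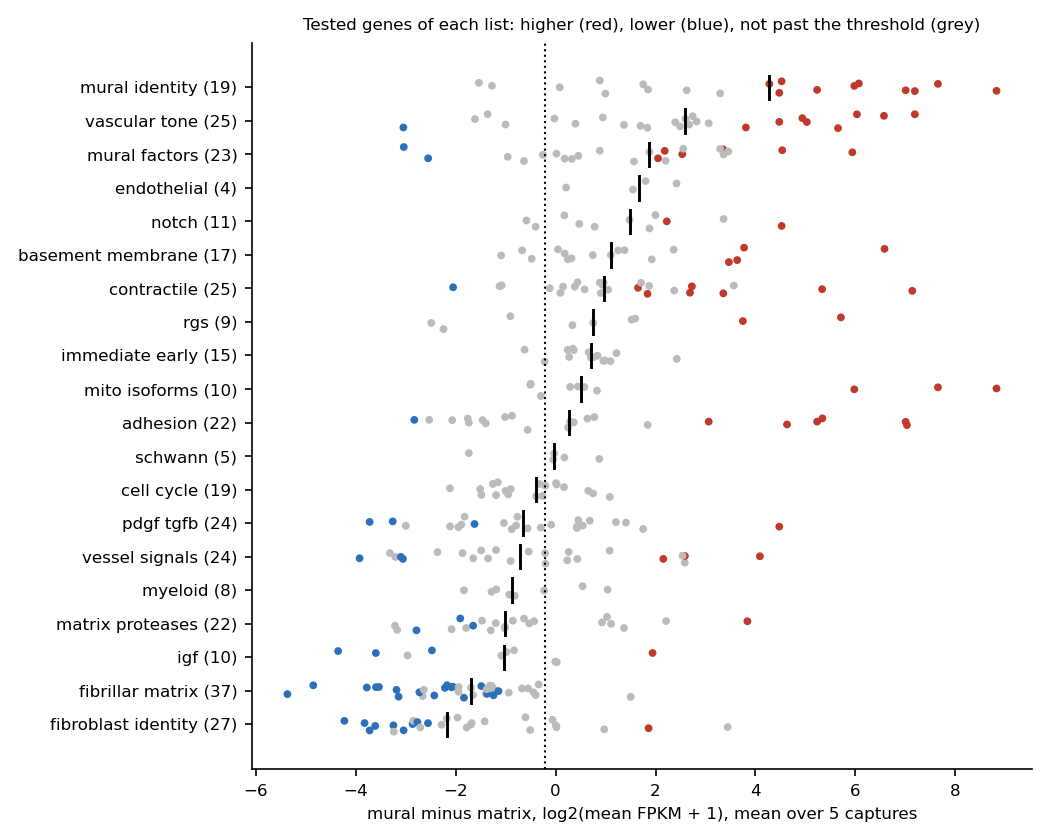
Difference of each tested gene between the classes, in log2(mean FPKM + 1), in the 20 lists with at least 4 tested genes, where a black bar is the median of the list, the dotted line the median of all genes at -0.21, and the number in brackets the genes tested. Mural identity lies farthest to the right with a median of 4.28 and fibroblast identity farthest to the left with -2.18.

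Outside the lists the largest differences among genes with 1 sign in all captures included several of known function. Rasgrp2, an activator of the small GTPase Rap1, stood at 340.1, 405, 378, 369 and 150.4 FPKM in mural cells and 0.104, 0.0696, 1.01, 0.899 and 0.226 FPKM in matrix fibroblasts (difference 7.79 ± 0.56, adjusted p = 5.28e-05). Tinagl1, a secreted matricellular protein, stood at 87.4, 151, 218, 462 and 109 FPKM against 0, 0, 1.10, 1.68 and 0 FPKM (difference 6.93 ± 0.57, adjusted p = 0.000117). Neither gene had a matrix value near the mural range. Gm23990, annotated as a miRNA inside Tanc2 on the same strand, had a difference of 7.82 ± 0.60, and reads of Tanc2 could not be told apart from its own. Trarg1, Cyp4b1, Tspan12, Ifitm1, Olfr558, Rem1 and Gm13889 had differences from 5.59 to 6.27, with adjusted p from 0.000539 to 0.00289. Olfr558 is an olfactory receptor gene and Rem1 a GTPase that restrains calcium channels.

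In the other direction, Angptl1, an angiopoietin-like protein, stood at 4.04, 0, 2.23, 0.0972 and 37.4 FPKM in mural cells and 181, 49.6, 99.7, 88.2 and 139 FPKM in matrix fibroblasts (difference -4.80 ± 0.71, adjusted p = 0.005). Prss35, a serine protease-like protein, stood at 43.7, 0, 7.74, 18.6 and 80.6 FPKM against 518, 361, 368, 294 and 260.2 FPKM (difference -4.61 ± 0.78, adjusted p = 0.0111), and Mn1, a transcriptional regulator, at 1.72, 0, 4.99, 2.69 and 5.05 FPKM against 82.8, 22.9, 92.6, 63.3 and 90.5 FPKM (difference -4.31 ± 0.58, adjusted p = 0.00306). No mural mean of these 3 reached the matrix range. Dpep1, a dipeptidase, Cilp, a cartilage matrix protein, Rab4a, Acot8, Capn6 and the pseudogenes Gm14756 and Gm15079, whose reads may belong to their parent genes, had differences from -4.91 to -4.08. The calls of 3 of them were lost, Rab4a without day 12 capture 1 or 3 or day 15 capture 1 (adjusted p 0.063 to 0.0729), Acot8 without day 12 capture 1 (adjusted p 0.0558) and Capn6 without day 12 capture 1, 2 or 3 (adjusted p 0.0643 to 0.0987). Rab4a and Dpep1 overlap the gene model Gm20388 on the same strand.

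Fabp4, a lipid-binding protein of adipocytes that capillary endothelium also makes, was the 1 gene called among the markers of other cell types. It stood at 128, 172, 84.95, 55.3 and 22.4 FPKM in mural cells and 21.5, 27.6, 0.229, 0.635 and 0 FPKM in matrix fibroblasts (difference 4.18 ± 0.69, adjusted p = 0.00967). Of 8 adipocyte markers, Adipoq, Cidec, Lep and Cfd were at 0 in both classes, and Pparg in the matrix class only. The 2 members tested were both higher in mural cells at an unadjusted p under 0.05 (limma), with a median difference of 3.02. A sum of at least 50 FPKM was seen in 17 of 59 mural cells and 8 of 146 matrix fibroblasts. The 8 adipocyte markers summed to 22.5 to 179 FPKM over the mural capture means and 0.175 to 27.6 FPKM over the matrix ones. Schwann cell markers summed to 0.840 to 112 and 0.852 to 69.5 FPKM, keratinocyte markers to 0 to 17.1 and 0.291 to 12.2 FPKM, and lymphocyte markers to 0.0786 to 0.926 and 0.161 to 8.69 FPKM.

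Whether the distance between the classes differed between day 12 and the later wounds was tested over the 3 captures of day 12 against the 2 later ones. Of 13962 genes 0 passed the threshold (0%, limma, 689 at an unadjusted p under 0.05, smallest adjusted p 0.735). Among the named genes Cyp4b1 had the smallest unadjusted p, 0.000731, with a matrix class of 0.363, 0.140, 1.62, 27.2 and 56.2 FPKM, highest in the later captures, beside 419, 318, 459, 370.2 and 542 FPKM in mural cells. For Acta2 the distance between the classes was larger by 2.50 in the later captures and for Mcam it changed by -2.96, at unadjusted p of 0.0307 and 0.0462, both short of the threshold. The day 15 capture carried the value of Acta2, with a difference of 6.05, since that of day 21, 2.33, lay within the 0.98 to 2.89 of day 12. Later mural cells are few, 18 at day 15 and 9 at day 21 in the paired captures. The lone mural cell of the other day 15 capture had Rgs5 of 5056 FPKM, Cox4i2 of 77.99, Notch3 of 30.2 and Pdgfrb of 132 FPKM, while Higd1b, Ndufa4l2, Kcnj8 and Acta2 were listed at 0.

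Mural cells differed among themselves in their collagen RNA. Of the 60, 19 had Col1a1 of at least 1000 FPKM, the limit used for matrix fibroblasts, with 5, 2, 3, 5 and 4 such cells in the 5 captures. They held a median of 8086 genes above 0, against 4726 in the 41 others, and Rgs5 of 2433 against 8549 FPKM. Their median estimated depth was also larger, 1872920 against 1128880 fragments, and its part in the counts above 0 was not tested. Median Notch3 was 3.51 against 25.4 FPKM, Cox4i2 53.02 against 328 FPKM, and Dcn 2097 against 14.8 FPKM. Pdgfra was above 0 in 13 of the 19 and 4 of the 41. The authors kept wells seen to hold 1 cell, and 1 of the 19 had both Xist and Y-linked RNA of at least 10 FPKM, against 0 of the 41 and 0 of 204 matrix fibroblasts. This count can only show wells that mix cells of both sexes. Whether any of the 19 came from a well with more than 1 cell was not tested. With the 19 cells left out, an alternative chosen after seeing the data, 127 of 13708 tested genes were higher and 456 lower. The median difference was -0.68. Since these cells were picked by their Col1a1, genes that follow Col1a1 were drawn lower by the choice itself. The list counts that follow are therefore description only. The mural identity list then had 9 of 19 higher, the vascular tone list 7 of 26, interstitial matrix 22 of 37 lower and fibroblast identity 15 of 27 lower. Of the 24 signals to vessels and leukocytes 1 was then higher and 8 lower. The difference in genes above 0 per cell was then -1005 ± 824 (exact sign-flip permutation test, two-sided, n = 5, p = 0.125).

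Of all genes tested, 211 (1.51%) had all 5 mural means above all 5 matrix means and 401 (2.87%) had all 5 below. Among mural identity genes these were 10 and 0 of 19, among vascular tone genes 9 and 2 of 25, among interstitial matrix genes 1 and 19 of 37, and among fibroblast identity genes 2 and 12 of 27. Contractile genes held 2 and 1 of 25.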

How the data were processed

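Single cells were isolated on C1 microfluidic chips from sorted tdTomato-high wound cells and sequenced as paired ends. The authors excluded wells with more than 1 cell by microscopy, aligned reads to mm10 with Bowtie 1.0.0 and quantified genes with RSEM. The deposited values are FPKM per gene and cell, from which no read counts are given, so count models were not used. For each capture, FPKM was averaged over the cells of each class and taken as log2(mean FPKM + 1). Differences were fitted with limma 3.58.1 in R 4.3.3 (variance trend, capture as block) over the 13962 genes whose overall mean reached 1 FPKM, without Rgs5, Col1a1, Tyrobp and 37 mitochondrial genes. Adjusted p-values are Benjamini-Hochberg over all genes tested, with a threshold of 0.05. The block pairs the classes because both came from the same capture. Day 12 was set against later captures in the same way. Scripts were tested on simulated data. Named genes were up to 6 with the largest called difference in each list, 12 markers and partners named in every case (Pdgfra, Pdgfrb, Acta2, Tagln, Myh11, Notch3, Cox4i2, Ndufa4l2, Higd1b, Cox4i1, Ndufa4 and Higd1a), and the 10 largest outside the lists in each direction with 1 sign in all captures. Members, lists and tests were chosen with earlier results of these data known. Alternatives covered the pseudocount, filters, scaling, centring, class limits, the block and each capture left out.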

Additional observations from a re-analysis of the deposited data

Results flagged for a closer look

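Of 108 sets of 5 capture values tested for a lone extreme value (the gap to the nearest other value over the whole range, against Dixon's limit of 0.71), 5 had one. Chance gives such a value in about 1 of 20 sets. The values are log2 differences between mural cells and matrix fibroblasts of a capture. Lox stood at -6.22 in day 12 capture 2, against -2.89 to -2.15 in the other captures. Olfr558 stood at 2.84 in the same capture, against 5.88 to 6.54. Igfbp7 stood at 1.47 in day 12 capture 1, against 1.97 to 2.13. Col4a1 stood at 6.15 in day 15 capture 1, against 2.52 to 3.53. Igfbp6 stood at -0.58 in day 21 capture 1, against -5.11 to -3.86. What set these captures apart was not tested.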

How the results depend on the processing

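The main count was 287 genes, 51.2% of them higher in mural cells. Without the replicate block, that is, without pairing the classes of a capture, 266 genes were called (134 higher and 132 lower), 221 of them among the 287. It ended the calls of 11 named genes (Acta2, Tagln, Actg2, Pdgfd, Pdgfrl, Id2, Igfbp2, Sema3a, Ccl7, Cxcl1 and Ccl2) and of Mef2c and Gja1, chosen after their values were seen, and changed no other call of a gene named here. Leaving out 1 capture gave 129 to 242 genes, and 53 of 87 called named genes kept their call in each of these fits. The count was 185 with a pseudocount of 10 FPKM, 17 with no filter on low values (25905 genes tested), 688 with the mean of log2 values over cells (285 higher and 403 lower) and 114 with no variance trend. Of the alternatives chosen after seeing the data, mural cells with Col1a1 under 1000 FPKM gave 583 and day 12 captures only gave 80, from 3 captures. Centring on the median gene gave 348, 77.3% of them higher. The share higher was also more than 10 points from the main one with a pseudocount of 0.1 FPKM (61.5%), with no filter (94.1%), with no variance trend (67.5%), without day 12 capture 1 (66.4%) or 2 (66.9%) or day 15 capture 1 (63.1%), and with Col1a1-high mural cells left out (21.8%). The sign turned for Ndufa4, whose difference ran from -1.30 without day 21 capture 1 to 0.057 without day 15 capture 1 (limma adjusted p = 0.977) among the fits without 1 capture, and which was called lower with the mean of log2 values over cells (-2.61, limma adjusted p = 0.0124), and for Higd1a (0.10, limma adjusted p = 0.934, centred), which no alternative called. The day comparison called 0 genes under each alternative run, where a lone later capture was assumed to vary like the others. Over all 23 alternatives 14 named genes kept their call, Cox4i2, Higd1b, Epas1, Esam, Gja4, Gm23990, Gucy1a1, Nr2f2, Rasgrp2, Sparcl1, Synpo2, Tinagl1, Trpc6 and Tspan12. The causes were not tested. Depth limits single cells, the shallowest of which had an estimated 12579 fragments, a value below the depths simulated to test the estimate.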
